A study of Mus musculus with 12 samples.

Results

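CD4+ T cells of SLE123 mice given an antibody to CD45RB were compared with CD4+ T cells of SLE123 mice left untreated. The comparison held 6 of the 12 RNA sequencing libraries of the study, 3 from treated and 3 from untreated mice, and its members were chosen by the strain and treatment that the labels give. SLE123 is a congenic line (B6.NZMSle1/Sle2/Sle3) that carries the lupus regions Sle1, Sle2 and Sle3 on a C57BL/6 background, so every animal of both groups carried these regions. Treated mice received 5 intraperitoneal injections of the antibody MB23G2, each of 100 μg, between day 0 and day 7, and the untreated group received no injection. Cells were isolated by negative magnetic sorting, from mice of 9 weeks by the methods and from females of 9 to 12 weeks by another statement of the study. The other 6 libraries, from 3 treated and 3 untreated C57BL/6 (B6) mice, were used to test whether a difference seen in SLE123 was also seen there. They also counted toward the filter on mean level and entered an alternative fit of all 12 libraries.

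CD45, the product of Ptprc, is a membrane tyrosine phosphatase that sets the threshold of T cell receptor signaling by acting on Src family kinases such as Lck. Its RB isoforms carry an alternatively spliced exon, are abundant on naive T cells and decline on many antigen-experienced cells, and antibodies to them have been used in mice to induce tolerance to transplants. Lupus-prone mice of this kind make autoantibodies from plasma cells, expand helper and follicular helper T cells, and show type I interferon response genes in many blood cells.

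The 6 SLE123 libraries held between 16525778 and 23641603 fragments recovered from the table. T cell identity genes were high in all of them: 18 of 18 listed markers were tested and their summed level was 5986 to 6082 FPKM (fragments scaled to transcript length and to library size) in treated mice and 4895 to 6756 FPKM in untreated mice. Ptprc, which encodes the antibody's target, was at 498, 484 and 470 FPKM in treated mice 1, 2 and 3 and at 492, 328 and 377 FPKM in untreated mice 1, 2 and 3. The Ptprc groups overlapped, and the difference of 0.30 ± 0.18 (SE) on the log2(FPKM + 1) scale did not pass the test (limma, adjusted p = 0.511). The RNA of the whole gene does not separate its RB isoforms. Several libraries stood apart within their groups. Treated mouse 1 held liver transcripts, untreated mouse 3 held the most RNA of B cells, plasma cells and macrophages, and the whole profile of untreated mouse 1 correlated more closely with treated mice 2 and 3 (r = 0.990 with each, across genes) than with untreated mice 2 and 3 (r = 0.980 and 0.977). Some results that rest on one of these libraries are given with and without it. For plasma cell genes, macrophage genes, Ly6c1 and Pdlim4 no fit without such a library is given. Untreated mouse 2 stood apart as well. It had the highest value of the 6 mice in 81 of 83 cytoplasmic ribosomal protein genes and in 72 of 80 nuclear respiratory chain genes. No fit without it is given for those lists.

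The test covered 13115 genes whose mean level reached 0.5 FPKM, and 5 passed an adjusted p of 0.05 (0.0381% of those tested), of which 2 rose (0.0152%) and 3 fell (0.0229%). Lgals7 and Gcg were the genes that rose, and the 3 that fell, Prss34, Mcpt8 and Prg2, encode granule proteins of basophils and eosinophils. At an unadjusted p under 0.05 there were 942 genes higher in treated mice (7.18% of those tested) and 427 lower (3.26%), and values did not overlap between the groups for 19.7% of genes, 1798 higher (13.7%) and 789 lower (6.02%). With a library left out, the number past the adjusted test was between 1 and 7, and the number at an unadjusted p under 0.05, which was 1369 with all 6, was 649, 730 and 776 without treated mice 1, 2 and 3 and 3185 without untreated mouse 1. The median log2 difference over all genes tested was 0.04, and 58.6% of the genes had a difference above 0. The balance of these counts depended on the scaling: 68.8% of the genes at an unadjusted p under 0.05 were higher as deposited, 47.6% when the fragments of immunoglobulin genes were left out of the library totals, 90.4% when FPKM was rescaled to an equal sum in every library (TPM), which moved the median over all genes to 0.22, and 61.8% with TPM computed without immunoglobulin genes.

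Lgals7 encodes galectin-7, a secreted lectin that binds β-galactosides on glycoproteins and is best known from stratified epithelia. It was at 19.6, 15.7 and 16.9 FPKM in treated mice 1, 2 and 3 and at 1.61, 1.70 and 1.35 FPKM in untreated mice 1, 2 and 3. The lowest treated value was far above the highest untreated value, and the replicates of each group lay close together. The means were 17.4 ± 2.01 (SD, n = 3) and 1.55 ± 0.184 FPKM, a ratio of 11.2, and the difference on the log2(FPKM + 1) scale was 2.85 ± 0.113 (SE), with an adjusted p of 0.000456 from limma. Between 223 and 249 fragments stood behind each treated value and between 20 and 24 behind each untreated value. The gene lies at chr7:28863853-28866284 (GRCm38, plus strand) and overlaps the antisense gene Gm10648, whose reads cannot be told apart from those of Lgals7 if strand was not used in counting. Lgals7 kept an adjusted p under 0.05 in all 21 alternative settings.

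Gcg encodes proglucagon, from which pancreatic α cells make glucagon and intestinal endocrine cells make glucagon-like peptides. Its values were 14.5, 17.7 and 17.1 FPKM in treated mice and 0.167, 0.0984 and 1.24 FPKM in untreated mice. All treated mice were high, with 265, 362 and 342 fragments, while untreated mice 1 and 2 held 3 and 2 fragments and untreated mouse 3 held 32. Gcg rose by 3.61 ± 0.269 (SE) on the log2(FPKM + 1) scale (limma, adjusted p = 0.0121), and its FPKM means of 16.4 ± 1.71 (SD, n = 3) and 0.503 ± 0.643 gave a ratio of 32.6. The gene lies at chr2:62474530-62483650 on the minus strand. The other hormone genes of the islet, Ins1, Ins2, Ppy, Sst and Iapp, chosen after the values were seen, were listed at 0 in all 6 SLE123 libraries. Digestive enzyme genes of the exocrine pancreas moved in the same direction: all 5 tested members of that list were higher in treated mice at an unadjusted p under 0.05 (3 without untreated mouse 2) and none passed the adjusted test. The filter counted the treated mice, and some members, Pnlip among them, reached a mean of 0.5 FPKM only through their values there. The count of 5 was therefore partly set by the filter and is not independent evidence of a direction. The summed level of the 10 listed genes was 27.9, 7.34 and 6.89 FPKM in treated mice 1, 2 and 3 and 1.54, 0.971 and 1.94 FPKM in untreated mice. The same sum was at 23.0 FPKM in 1 untreated B6 mouse, and between 0.480 and 4.19 FPKM in the other 5. Ctrb1, a chymotrypsinogen, was at 6.56, 1.32 and 0.861 FPKM and at 0, 0 and 0.286 FPKM, and Pnlip, the pancreatic lipase, was at 3.68, 0.786 and 1.40 FPKM and at 0, 0.0721 and 0.0285 FPKM. These enzymes were highest in treated mouse 1, which held the least Gcg of the treated mice, and their part in the Gcg result was not tested. Gcg passed the adjusted test in 11 of the 21 alternative settings and in 1 of the 6 that left out a library.

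**Figure D1:**
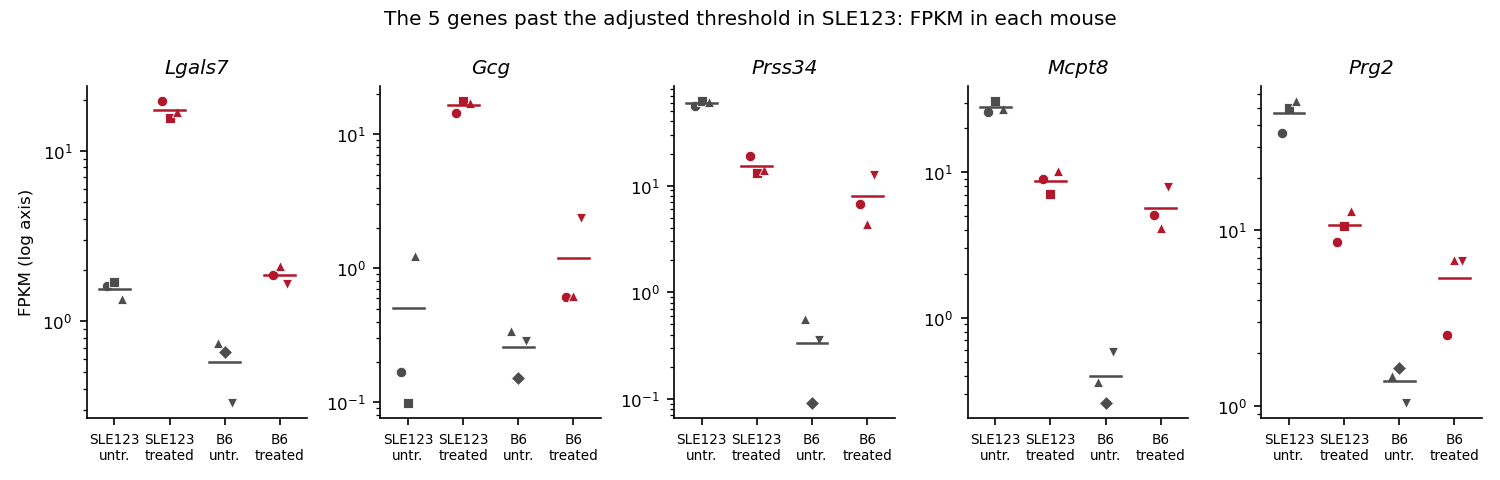
FPKM (log axis) of the 5 genes that passed the adjusted test, in each mouse of the 4 groups. Each point is 1 mouse, its shape gives the replicate number, and lines are group means. Prss34, Mcpt8 and Prg2 were lower in treated than in untreated SLE123 mice and higher in treated than in untreated B6 mice.

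Prss34 and Mcpt8 encode serine proteases stored in basophil granules, and Prg2 encodes eosinophil major basic protein. Prss34 was at 18.8, 13.1 and 14.0 FPKM in treated mice and at 55.9, 62.0 and 61.0 FPKM in untreated mice. Mcpt8 was at 8.96, 7.08 and 10.2 FPKM in treated mice and at 26.0, 30.9 and 27.3 FPKM in untreated mice. Prg2 was at 8.58, 10.6 and 12.9 FPKM in treated mice and at 36.0, 49.5 and 54.5 FPKM in untreated mice. No treated value of the 3 genes reached the lowest untreated one. On the log2(FPKM + 1) scale Prss34 fell by 1.91 ± 0.133 (SE; adjusted p = 0.0111), Mcpt8 fell by 1.59 ± 0.134 (adjusted p = 0.0208) and Prg2 fell by 2.02 ± 0.188 (adjusted p = 0.0328), all from limma. They lie at chr17:25298394-25300165, chr14:56082166-56085273 and chr2:84980461-84983632 in the GRCm38 genome. Each was lower under every alternative, but the adjusted test was passed in 16, 13 and 10 of 21 settings, and among the 6 that left out a library in 2, 0 and 0.

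The list of basophil, eosinophil and mast cell genes, which includes Prss34, Mcpt8 and Prg2, showed how far the difference extended. Of its 12 members 10 were tested. At an unadjusted p under 0.05 7 were lower (3.26% of all genes were), among them the 3 that passed the adjusted test. Without overlap between the groups 6 were lower (6.02% of all genes were). The median difference was -0.58 on the log2(FPKM + 1) scale, against 0.04 over all genes tested. The summed level of the list was 47.4 to 55.2 FPKM in treated mice and 142 to 173 FPKM in untreated mice. Epx, eosinophil peroxidase, was at 1.17, 1.48 and 2.19 FPKM in treated mice and at 3.96, 5.17 and 7.66 FPKM in untreated mice, with an adjusted p of 0.246 from limma. The mast cell and basophil carboxypeptidase Cpa3 differed less, at 4.25 to 4.71 FPKM and 5.94 to 7.13 FPKM, and Gata2, a transcription factor of these cells, overlapped at 4.86 to 6.10 FPKM and 3.85 to 5.78 FPKM. Further granulocyte genes outside the list are described because of their lower values in treated mice, so their direction is not independent of that choice. Ear2 and Ear6, which encode eosinophil-associated ribonucleases of a gene family with close copies, were at 0.517 to 0.607 and 0.200 to 0.672 FPKM in treated mice and at 3.498 to 8.35 and 2.94 to 5.54 FPKM in untreated mice. Prg3, a paralog of Prg2, was at 0.313 to 0.391 FPKM and 1.66 to 2.63 FPKM, and Alox5ap, which activates 5-lipoxygenase for leukotriene synthesis, was at 5.29 to 6.34 FPKM and 11.1 to 15.5 FPKM, in treated and untreated mice. Prg3 and Alox5ap were chosen after their values were seen. The groups were separate for these 4 genes and for Epx, and none of them passed the adjusted test. In bulk RNA fewer cells of a type and less RNA per cell cannot be told apart.

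Genes of the type I interferon response were higher in treated mice as a group. These genes, induced through the interferon receptor, encode antiviral effectors and sensors. All 26 listed genes were tested and none passed the adjusted test, but 23 were higher at an unadjusted p under 0.05 (7.18% of all genes were). None was lower at that threshold, and 22 were higher without overlap between the groups (13.7% of all genes were). The median log2 difference of the 26 genes was 0.47, against 0.04 over all genes, and it stayed between 0.42 and 0.68 under 5 other scalings, with and without immunoglobulin genes. Oas2, a sensor of double-stranded RNA, was at 17.4, 14.3 and 14.1 FPKM in treated mice and at 9.09, 6.16 and 5.70 FPKM in untreated mice, a difference of 1.05 ± 0.17 (SE; limma, adjusted p = 0.197). Oas3, of the same family, was at 25.4, 20.4 and 19.9 FPKM and at 14.5, 12.6 and 13.6 FPKM. Zbp1, a sensor of Z-form nucleic acid, was at 67.4, 62.8 and 62.9 FPKM and at 48.9, 39.7 and 41.5 FPKM. In each of these genes every treated mouse was above every untreated mouse. Irf7, which amplifies interferon production, and Stat2, a signal transducer of the interferon receptor, followed at 33.1 to 40.7 and 32.1 to 33.0 FPKM in treated mice and at 23.3 to 26.5 and 18.5 to 24.3 FPKM in untreated mice.

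Treated mouse 1 had the highest value of all 6 mice in 22 of the 26 interferon genes, and untreated mouse 2 or 3 the lowest in 24. Without treated mouse 1 the count at an unadjusted p under 0.05 was 20, and it was 21 to 23 without each of the other mice. With all 12 libraries in one fit, which shares the estimate of spread with B6, 7 of the 26 genes passed the adjusted test. Among genes induced by interferon γ, 5 of 14 tested were higher at an unadjusted p under 0.05. They were led by Gbp2, a guanylate-binding protein at 66.4, 58.6 and 55.1 FPKM in treated mice and 41.1, 40.3 and 39.98 FPKM in untreated mice (limma, adjusted p = 0.178). Gbp4, which overlaps the genes Gbp8 and Gbp9 on the same strand, was at 74.7 to 82.6 FPKM and 39.7 to 62.4 FPKM.

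The interferon-stimulated response element, to which interferon-activated transcription factors bind, was searched for on both strands, as GAAA followed after any 2 bases by GAAA, in the 250 bases before each gene start of RefSeq (GRCm38.p6). Of the 26 interferon genes 18 had a promoter in that table and 10 of these (55.6%) held a match, whereas 306 of 9313 tested genes with a promoter did (3.29%) and 2.98% of all promoters. Stretches of 5 of these promoters are shown because their genes had separate groups of values in treated and untreated mice, and capitals mark the matches, which begin with TTTC where the element is on the other strand. Isg15, at chr4:156200850-156200921 on the minus strand, held overlapping matches. Oas3 lies at chr5:120777700-120777759 on the minus strand, Stat2 at chr10:128270251-128270310, Ifit3 at chr19:34583348-34583441 and Ifit1 at chr19:34640760-34640838, the last 3 on the plus strand. A match describes letters in these windows and is no measurement of binding.
Isg15: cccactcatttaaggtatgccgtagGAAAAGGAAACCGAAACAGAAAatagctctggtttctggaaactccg
Oas3: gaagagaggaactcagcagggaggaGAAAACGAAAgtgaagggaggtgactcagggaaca
Stat2: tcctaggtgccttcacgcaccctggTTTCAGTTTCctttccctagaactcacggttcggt
Ifit3: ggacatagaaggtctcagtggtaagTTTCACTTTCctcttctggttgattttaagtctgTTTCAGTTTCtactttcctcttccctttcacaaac
Ifit1: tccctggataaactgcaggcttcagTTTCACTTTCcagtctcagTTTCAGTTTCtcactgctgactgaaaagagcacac

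The genes with these promoters, chosen for their separate groups, had log2 differences from 0.42 (Isg15) to 0.74 (Ifit1). Over the whole list the differences ran from 0.01 to 1.05. Isg15, a ubiquitin-like modifier, was at 38.7, 35.7 and 31.9 FPKM in treated mice and at 24.2, 28.8 and 25.4 FPKM in untreated mice. Ifit1, which binds viral RNA, was at 26.1, 23.0 and 21.6 FPKM and at 16.3, 14.1 and 11.1 FPKM. Ifit3 was at 38.6, 29.4 and 26.2 FPKM and at 22.3, 18.3 and 16.9 FPKM. Its promoter window is identical to that of its copy Ifit3b. Its level is uncertain if reads are shared between these genes, which was not tested. Treated and untreated mice were separate in all 3 genes.

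**Figure D2:**
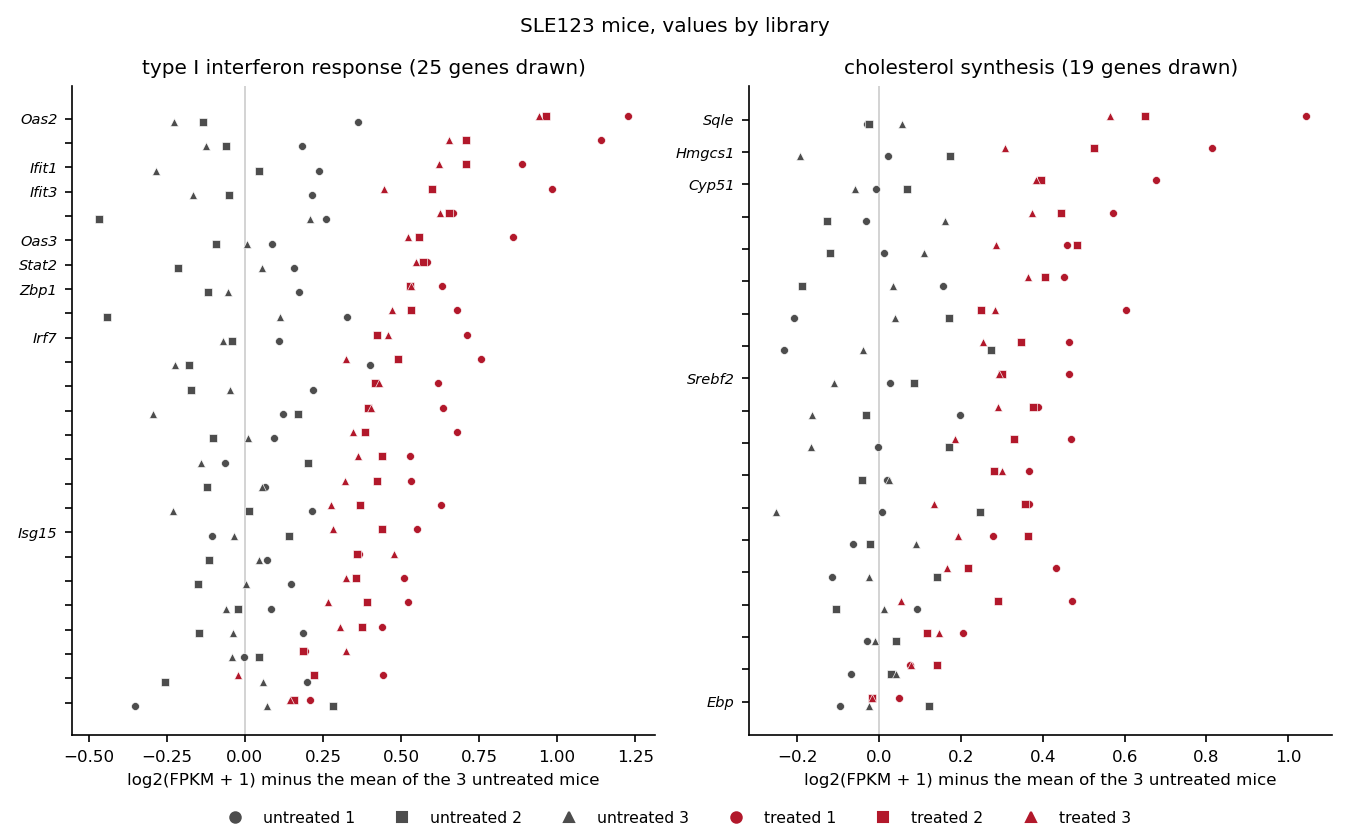
Values of 25 type I interferon response genes and 19 cholesterol synthesis genes in each SLE123 mouse, as log2(FPKM + 1) minus the mean of the 3 untreated mice. Each point is 1 mouse, red for treated and grey for untreated, and names are given for genes the text describes. The points of 22 and 15 of the genes drawn do not overlap between the groups.

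Genes of cholesterol synthesis and uptake formed a second group that was higher in treated mice. The transcription factor SREBP2, the product of Srebf2, drives these genes when membrane cholesterol is low. All 22 listed genes were tested and none passed the adjusted test. At an unadjusted p under 0.05 17 were higher (7.18% of all genes were), and 18 were higher without overlap (13.7% of all genes were). The median log2 difference was 0.35, with a range of 0.30 to 0.55 under 5 other scalings. Sqle, the squalene epoxidase, was at 8.93, 6.57 and 6.13 FPKM and at 3.73, 3.74 and 4.01 FPKM. Its difference of 0.75 had an adjusted p of 0.287 from limma. Hmgcs1, an early enzyme of the pathway, was at 23.4, 18.98 and 16.2 FPKM and at 13.1, 14.6 and 11.1 FPKM. Cyp51, which demethylates lanosterol, was at 14.9, 12.1 and 11.999 FPKM and at 8.91, 9.43 and 8.55 FPKM. Every treated mouse was above every untreated mouse in these 3 genes, and treated mouse 1 was the highest. Srebf2 itself differed less, at 55.0 to 62.1 FPKM in treated and 41.4 to 47.5 FPKM in untreated mice. Ebp, a sterol isomerase, was at 21.6 to 22.6 FPKM and 20.4 to 23.8 FPKM, and its difference of 0.00 changed sign with the scaling. Treated mouse 1 was highest of the 6 in 18 of the 22 genes, and without it 12 genes were higher at an unadjusted p under 0.05. The same count was 13 without treated mouse 2, 13 without untreated mouse 1 and 14 to 19 without each of the others. The 250 bases before gene starts were also searched for the sterol regulatory element, the site of SREBP2, as an exact sequence. Of the 22 listed genes 15 had a promoter, and 0 of these held a match. Of 9313 tested genes with a promoter 5 held one (0.0537%). A sequence this rare cannot decide whether SREBP2 acted on these genes, and its part was not tested.

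Among helper T cell genes the difference with the smallest adjusted p was in Foxp3, the transcription factor that defines regulatory T cells. Foxp3 was at 22.9, 21.9 and 22.2 FPKM in treated mice and at 13.7, 12.7 and 15.4 FPKM in untreated mice, separate groups with little spread. Its difference of 0.65 ± 0.09 (SE) had an adjusted p of 0.0989 from limma, and Foxp3 overlaps other transcripts on both strands, among them Flicr on its own strand. The other regulatory T cell genes did not follow as a group: 2 of 13 tested were higher at an unadjusted p under 0.05 and the median difference was 0.12. Il2ra, the interleukin-2 receptor α chain, was at 6.18 to 9.44 FPKM in treated and 5.13 to 5.95 FPKM in untreated mice, and Lrrc32, which anchors latent TGF-β, was at 2.43 to 2.70 FPKM and 1.795 to 2.19 FPKM. In the Th1 list 5 of 11 genes were higher at an unadjusted p under 0.05. Il12rb2, the inducible chain of the interleukin-12 receptor, was at 5.11, 4.89 and 4.89 FPKM in treated mice and 2.79, 2.30 and 3.46 FPKM in untreated mice. Tbx21, the transcription factor T-bet, was at 16.3 to 16.9 FPKM and 11.8 to 13.8 FPKM, without overlap. The Th1 cytokine Ifng overlapped, at 21.5 to 23.3 FPKM in treated and 19.95 to 26.6 FPKM in untreated mice. Without immunoglobulin fragments in the scaling, and without each of the treated mice in turn, the Th1 count was 3 of 11. The count of regulatory T cell genes was 1 without treated mouse 3.

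Of 5 Th2 genes tested 3 were higher at an unadjusted p under 0.05, but 1 was without treated mouse 1, treated mouse 2 or untreated mouse 2, and 2 were without immunoglobulin fragments in the scaling. They included the chemokine receptor Ccr4, at 7.40 to 8.44 FPKM in treated and 4.63 to 5.54 FPKM in untreated mice, and Il1rl1, the interleukin-33 receptor, at 2.06 to 2.44 FPKM and 1.47 to 1.96 FPKM. Follicular helper genes, which guide T cells to B cell follicles, had no stable direction. At an unadjusted p under 0.05 3 of 15 were lower, with a median difference of -0.04. Without treated mouse 1, which held the lowest value in 8 of the 15, the count was 1 and the median 0.02, and with TPM the count was 0 and the median 0.15. Ascl2, which promotes the follicular program, was at 6.04, 9.02 and 8.59 FPKM in treated mice and 12.3, 11.2 and 10.8 FPKM in untreated mice. Id3 was at 14.9 to 19.4 FPKM and 20.4 to 27.3 FPKM, and Sostdc1 overlapped at 34.5 to 54.4 FPKM and 51.4 to 82.4 FPKM.

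Zfp683 encodes Hobit, a transcription factor of resident memory and natural killer T cells. It was at 27.3, 26.8 and 26.2 FPKM in treated mice and at 11.3, 10.1 and 16.02 FPKM in untreated mice, and its difference of 1.07 ± 0.15 (SE) had an adjusted p of 0.141 from limma. Receptors shared by natural killer cells and some T cells were also higher. In the list of CD8 T and natural killer cell genes 4 of 7 tested were higher at an unadjusted p under 0.05, in every setting that left out a library too, and the summed level was 45.8 to 52.9 FPKM in treated and 29.7 to 31.9 FPKM in untreated mice. Klrk1, which encodes the activating receptor NKG2D, was at 9.75, 10.7 and 9.94 FPKM and at 5.45, 5.41 and 6.36 FPKM (limma, adjusted p = 0.0894). Klrb1c, which encodes NK1.1 and overlaps Gm44511 on its strand, was at 11.4, 10.8 and 9.46 FPKM and at 3.48, 5.73 and 4.85 FPKM. Klrc1 and Klrd1, which encode the paired chains NKG2A and CD94, were separate as well, at 3.27 to 4.76 and 15.1 to 16.5 FPKM in treated and 1.799 to 2.30 and 9.53 to 12.7 FPKM in untreated mice. Ncr1, a receptor more restricted to natural killer cells, was near the lower limit and overlapped, at 0.255 to 0.636 FPKM and 0.202 to 1.10 FPKM.

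Cytotoxic effector genes moved in both directions. Among 12 tested, an unadjusted p under 0.05 was reached by 4 that were higher and by 2 that were lower (1 without treated mouse 1 or 3). Gzmb, granzyme B, was at 10.7, 8.76 and 8.69 FPKM in treated mice and 4.14, 4.91 and 5.43 FPKM in untreated mice (limma, adjusted p = 0.159), and the chemokine Ccl3 was at 16.8, 11.4 and 13.6 FPKM and 5.06, 6.85 and 6.74 FPKM. Gzma was at 25.6 to 31.7 FPKM and 19.8 to 23.0 FPKM. By contrast Gzmk, granzyme K, was at 12.3, 12.05 and 10.998 FPKM in treated mice and 16.7, 22.9 and 17.0 FPKM in untreated mice, and the chemokine Ccl5 was at 97.6 to 114 FPKM and 121 to 151 FPKM. In all 5 genes the groups were separate. Ly6c1 and Pdlim4, among the largest differences of the genes higher in treated mice, were at 42.3 to 74.3 and 17.9 to 29.3 FPKM in treated mice and at 8.02 to 30.1 and 2.38 to 12.5 FPKM in untreated mice, and their lowest values were in untreated mouse 3.

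**Figure D3:**
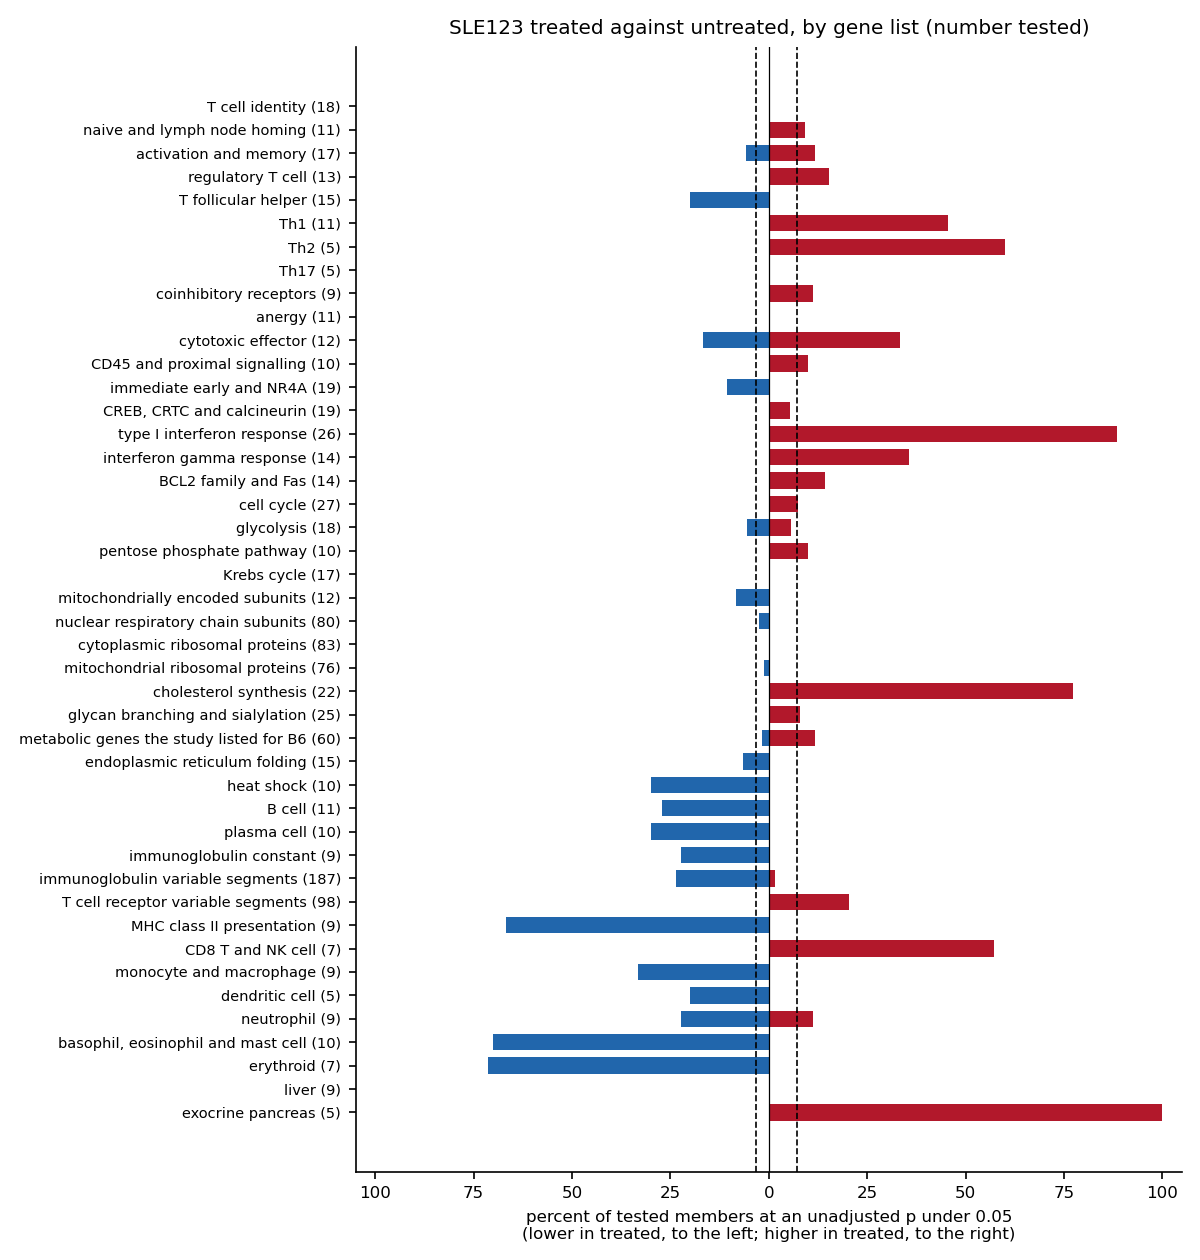
Percent of the tested members of each gene list that were higher (red, right) or lower (blue, left) in treated SLE123 mice at an unadjusted p under 0.05. The number tested is in brackets, dashed lines mark the same percent over all genes (7.18% higher and 3.26% lower), and only lists with at least 5 tested members are drawn. Some exocrine pancreas genes entered the test only through their values in treated SLE123 mice.

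T cell receptor variable segments, of which 98 were tested, were higher at an unadjusted p under 0.05 in 20 cases and lower in none. Without untreated mouse 3 the higher segments numbered 12, and without untreated mouse 1 they numbered 32. Trav9-4 was at 27.6, 28.7 and 31.0 FPKM in treated mice and at 19.5, 18.6 and 17.6 FPKM in untreated mice (limma, adjusted p = 0.0894). Trbv29 was at 53.2, 49.1 and 44.7 FPKM and at 37.1, 32.2 and 30.0 FPKM. Both segments were separate between the groups, and reads of these short, similar segments may be split among copies.

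Immunoglobulin genes leaned lower in treated mice but with large differences between mice of a group. They held 2.51%, 5.25% and 5.38% of all fragments in treated mice 1, 2 and 3 and 5.06%, 6.76% and 12.2% in untreated mice 1, 2 and 3. The groups overlapped, and the difference between means of -3.64 percentage points had p = 0.3 in a two-sided exact permutation test, which cannot go below 0.1 with 3 mice against 3. Without untreated mouse 3 the difference was -1.53 percentage points. Of 187 immunoglobulin variable segments tested, 44 reached an unadjusted p under 0.05 with lower values and 3 with higher values. Without treated mouse 1 these counts were 26 and 11, without untreated mouse 1 they were 69 and 3, and without untreated mouse 3 they were 32 and 11. Ighv9-2 was at 10.3, 11.9 and 11.5 FPKM in treated mice and at 51.4, 50.3 and 106 FPKM in untreated mice (limma, adjusted p = 0.0822), and Igkv4-68 was at 45.1, 64.4 and 75.9 FPKM and at 257, 170 and 208 FPKM. Among constant regions Ighe, of the IgE heavy chain that arms basophils and mast cells, was at 1.01, 3.12 and 3.65 FPKM in treated mice and 10.4, 11.5 and 9.80 FPKM in untreated mice. Ighg1 lay on the other side, at 2212, 4121 and 4451 FPKM in treated mice and 1760, 1608 and 2366 FPKM in untreated mice. The groups were separate for Ighe and overlapped for Ighg1, and neither passed the adjusted test (0.233 and 0.475, limma).

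The plasma cell marker Jchain, the joining chain of IgM and IgA, was at 826, 1517 and 1401 FPKM in treated mice and 1634, 2429 and 4204 FPKM in untreated mice. Tnfrsf17, which encodes the plasma cell survival receptor BCMA, was at 3.06 to 4.30 FPKM and 5.05 to 12.3 FPKM. B cell genes and MHC class II genes were lower in all 11 and all 9 members tested, with 3 and 6 at an unadjusted p under 0.05, and their highest value was in untreated mouse 3 in 11 and 8 of them. Cd79a, a chain of the B cell receptor, was at 13.3, 21.1 and 22.1 FPKM in treated mice and 25.3, 40.03 and 87.2 FPKM in untreated mice, and H2-Eb1 was at 15.2, 16.4 and 17.1 FPKM and 24.2, 29.6 and 122 FPKM. Without untreated mouse 3 the median difference of the B cell list went from -0.87 to -0.39 and that of the MHC class II list from -0.98 to -0.55. The counts at an unadjusted p under 0.05 were 0 and 1 without treated mouse 1, 1 and 2 without treated mouse 2, and 1 and 3 without treated mouse 3. They were 8 and 9 without untreated mouse 1 and 6 and 5 without untreated mouse 3. Summed B cell genes were at 53.2 to 75.3 FPKM in treated and 81.0 to 287 FPKM in untreated mice, and summed macrophage genes at 27.8 to 33.5 FPKM and 45.2 to 153 FPKM. No defining marker of either list was at 0 in all mice of a group, and their part in the immunoglobulin values was not tested.

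Erythroid genes were lower in treated mice too, while neutrophil genes were mixed. The globin genes Hba-a1 and Hbb-bs, whose near-identical copies may share reads, were at 8.07, 1.21 and 1.48 FPKM and at 4.58, 0.682 and 0.631 FPKM in treated mice, and at 21.3, 15.5 and 25.5 FPKM and 10.7, 8.12 and 12.02 FPKM in untreated mice. Treated mouse 1 was between the other treated mice and the untreated mice, and without it both genes passed the adjusted test. Of 7 erythroid genes tested 5 were lower at an unadjusted p under 0.05, and 3 without treated mouse 3. In the neutrophil list 9 genes were tested, of which 2 were lower and 1 higher at an unadjusted p under 0.05. The lower count was 6 without treated mouse 1, and the higher count was 0 without treated mouse 1, untreated mouse 1 or untreated mouse 3. Elane and Mpo, granule proteins of granulocyte precursors, were at 16.8 to 21.9 and 27.99 to 39.6 FPKM in treated mice and 28.9 to 56.9 and 45.2 to 61.2 FPKM in untreated mice. Mmp9, a gelatinase of neutrophil granules, was the higher one, at 8.54 to 13.3 FPKM in treated and 5.01 to 8.21 FPKM in untreated mice.

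**Figure D4:**
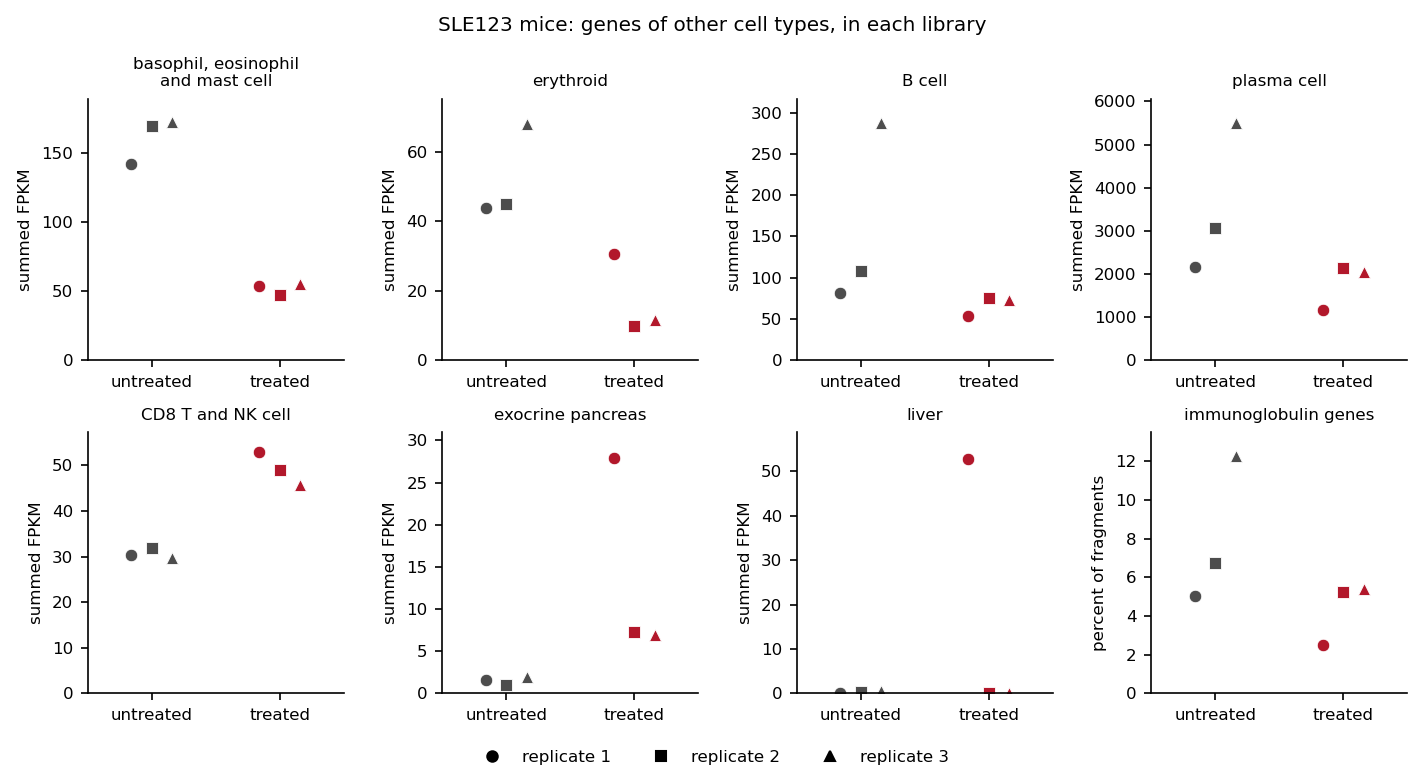
Summed FPKM of marker lists of other cell types, and the percent of fragments on immunoglobulin genes, in each SLE123 mouse (grey untreated, red treated, shape by replicate number). The sums of every list drawn except liver do not overlap between the groups, though those of B cells and plasma cells nearly meet. The immunoglobulin percents overlap. Untreated mouse 3 is highest for B and plasma cells, and of these mice treated mouse 1 alone holds liver transcripts.

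Liver genes were present in treated mouse 1 only among SLE123 mice, at a summed 52.8 FPKM against 0.0767 to 0.511 FPKM in the other 5, with Alb at 28.2 FPKM. All 6 B6 libraries held them at the level of that mouse, with sums of 47.5 to 55.8 FPKM and Alb at 24.7 to 30.7 FPKM.

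Several lists of energy metabolism held few genes past the unadjusted threshold. Over all genes tested 7.18% were higher and 3.26% lower at that threshold, and 58.6% had a difference above 0. Of 18 glycolysis genes an unadjusted p under 0.05 was reached by 1 that was higher and 1 that was lower, of 17 Krebs cycle genes none reached it, and of 80 nuclear respiratory chain subunits 2 were lower. The median differences of these lists were -0.04, 0.01 and -0.09 on the log2(FPKM + 1) scale, and all 3 changed sign under another scaling, that of the respiratory chain list lying between -0.15 and 0.09. In the list of CREB, CRTC and calcineurin genes 1 of 19 was higher at an unadjusted p under 0.05. Cell cycle genes were higher in 26 of 27, with 2 at an unadjusted p under 0.05 and a median difference of 0.18. Untreated mouse 1 held the lowest value in 23 of these 27 genes and untreated mouse 3 the highest in 15. The summed level of the cell cycle list was 687 to 743 FPKM in treated mice, inside the range of 534 to 757 FPKM in untreated mice. Of 60 metabolic genes that the study listed for B6, 7 were higher and 1 lower at that threshold, and 46 had a difference above 0. That list was chosen on libraries of the same series and is not independent evidence of a direction. These counts moved with single libraries. Without untreated mouse 1 there were 16 lower respiratory chain genes, 7 higher CREB, CRTC and calcineurin genes and 19 higher genes of the study's list, and without untreated mouse 3 there were 15 higher cell cycle genes. With treated mouse 1 left out the last 3 counts were 0, 1 and 0. Heat shock genes were lower in 10 of 10, with 3 at an unadjusted p under 0.05 and a median difference of -0.23. With TPM that count was 0 and the median -0.05, and without 1 library at a time the count was between 0 (without treated mouse 2) and 5 (without untreated mouse 1), with 1 without untreated mouse 2 or 3.

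The same treatment in B6 mice gave another set of differences, from libraries that share no samples with SLE123. Of the genes tested 3.64% differed in their response between the strains at an adjusted p under 0.05 (limma interaction). All 5 genes that passed the test in SLE123 were among them. Lgals7 moved the same way in B6, from 0.576 ± 0.217 to 1.87 ± 0.226 FPKM (SD, n = 3; limma, adjusted p = 0.00761), and the rise in SLE123 was larger by 1.97 on the log2(FPKM + 1) scale (adjusted p = 0.000325, limma). Prss34, Mcpt8 and Prg2 rose in B6, by 2.65, 2.23 and 1.33 on the same scale (adjusted p = 0.00483, 0.00175 and 0.0319, limma), from untreated levels of 0.336, 0.401 and 1.39 FPKM. Of the 10 basophil, eosinophil and mast cell genes 7 differed between the strains in treated minus untreated, all with the lower difference in SLE123, and so did 6 of 9 MHC class II genes. None of the 26 type I interferon genes and none of the 22 cholesterol genes differed at that threshold, and their median differences in B6 were 0.41 and 0.44, with 10 and 16 genes that rose in B6 (8.74% of all genes rose there and 6.12% fell). Of the T cell receptor segments 11 of 98 differed, 10 of them with the larger difference in SLE123. Zfp683 had a difference of 1.07 in SLE123 and -0.06 in B6, and these differed by 1.13 (adjusted p = 0.00985, limma). Foxp3 had differences of 0.65 and 0.56, and the test of their difference was not passed (adjusted p = 0.790, limma).

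**Figure D5:**
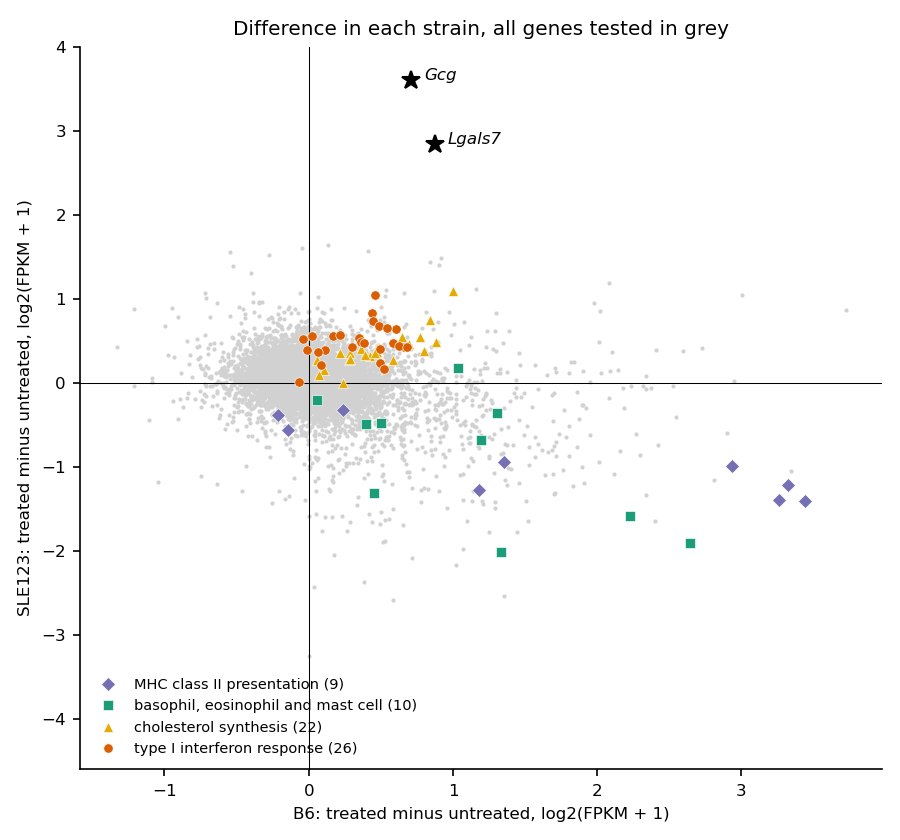
Treated minus untreated on the log2(FPKM + 1) scale in B6 (x axis) and in SLE123 (y axis), with all 13115 genes tested in grey. Interferon and cholesterol genes lie above 0 in SLE123 in all 26 and 22 cases, while basophil and MHC class II genes lie mostly below 0 in SLE123 and above 0 in B6.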

How the data were processed

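RNA of CD4+ T cells from 12 mice was sequenced with 1 library per mouse. Per the submitters' processing notes, reads were called with CASAVA 1.8 and mapped with STAR to mm10, and the authors deposited 1 table of FPKM per Ensembl gene and mouse. The annotation release, the counting program and the use of strand are not given in the sources used here. The methods also describe a split into CD25+ and CD25- cells, and the labels do not say which fraction the libraries hold. Of 35275 genes 23230 were above 0, and symbols and coordinates came from GENCODE M21 (97.8% of identifiers matched). Every column of the table was used. For each gene above 0 the values were whole multiples of 1 fragment (100% within 0.02 fragments), so fragments and library totals were recovered, while the depth before mapping is unknown.

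Genes averaging 0.5 FPKM or more across the 12 libraries entered the test, on log2(FPKM + 1) in the 6 SLE123 libraries, with limma 3.58.1 (R 4.3.3; eBayes with a trend) and Benjamini-Hochberg adjustment over all genes tested, with a threshold of 0.05. A fold on this scale understates the change of low genes. The interaction with strain used all 12 libraries. The fit was also run on simulated counts with known changes, with the same biological spread set for every gene. No simulated library was made to stand apart from its group, so that run does not show how the fit performs with libraries like these. The share of immunoglobulin fragments was compared with an exact permutation test (SciPy 1.17.1). Each mouse is 1 sample, and nothing states whether mice shared litters or days, so p-values measure the spread between these mice.

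Gene lists, and the genes to name, were chosen with earlier results of these data known. The named genes are those past the adjusted threshold, the 10 with the largest difference in each direction among other genes at an unadjusted p under 0.05 without overlap (no receptor segments, pseudogenes or predicted genes), and from each list the 3 with the smallest p, with Ptprc and cell type markers. Genes of a list beyond its first 3, Alox5ap, Prg3 and the islet hormones were chosen after their values were seen. Some listed genes are included in counts and are not reported by name here. Alternatives covered pseudocount, filter, scaling, moderation, voom, samples in the fit, a replicate block and each library left out. The fit by voom without immunoglobulin fragments in the library size was chosen after seeing the data.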

Additional observations from a re-analysis of the deposited data

Results flagged for a closer look

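The following genes were singled out because their treated minus untreated difference in SLE123 differed from that in B6 (limma interaction, adjusted p under 0.05). Each value is the SLE123 difference minus the B6 difference on the log2(FPKM + 1) scale. Genes above 0 were Lgals7 at 1.97, Gcg at 2.90, Gbp4 at 0.76 and Zfp683 at 1.13, with the receptor segments Trav9-4 at 1.07, Trbv29 at 0.63 and Trav3-3 at 0.97. Basophil and eosinophil genes were below 0, with Prss34 at -4.56, Mcpt8 at -3.82, Prg2 at -3.35, Epx at -1.77, Prg3 at -1.31, Ear2 at -2.41, Ear6 at -2.03, Alox5ap at -3.19, Cpa3 at -0.99 and Fcer1a at -1.87. Among effector and natural killer genes, Gzma was at -2.22, Ccl3 at -1.96, Ccl5 at -2.09 and Ncr1 at -2.35. Erythroid and granulocyte genes gave -3.89 for Hba-a1, -3.19 for Hbb-bs, -2.09 for Hbb-bt, -2.40 for Elane and -1.76 for Mpo. B cell and MHC class II genes gave -3.07 for Cd79a, -2.65 for Blk, -4.05 for Fcmr, -4.66 for H2-Aa and -4.84 for H2-Eb1. In untreated SLE123 mice 1, 2 and 3 Blk was at 2.25, 3.29 and 15.9 FPKM and Fcmr at 7.22, 10.5 and 37.9 FPKM. H2-Aa was at 21.1, 25.3 and 104 FPKM, and every treated value of the 3 genes was below the untreated ones. The interaction was not fitted without untreated mouse 3. Immunoglobulin genes gave -3.03 for Ighe, -2.86 for Ighg1, -2.47 for Ighv9-2 and -3.21 for Igkv4-68. Ighg1 was above 0 in both strains, with a difference of 0.87 in SLE123 and 3.72 in B6. Groups held 3 mice, too few to test a single mouse as an outlier.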

How the results depend on the processing

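The count of 5 genes past the adjusted test (2 higher, 3 lower) was 21 (10 and 11) with TPM, 3 (1 and 2) with TPM without immunoglobulin genes, 3 (1 and 2) with voom on recovered fragments, 3 (1 and 2) with voom without immunoglobulin fragments, and 53 (35 and 18) with all 12 libraries in one fit. It was 4 (1 and 3) with a pseudocount of 0.1 and 4 (4 and 0) with no filter. Leaving out a library gave 1 to 7 genes, 1 to 3 of them higher and 0 to 4 lower. The count was 1 without treated mouse 2, treated mouse 3, untreated mouse 1 or untreated mouse 2, 4 without treated mouse 1 and 7 without untreated mouse 3. The share of genes that were higher among those at an unadjusted p under 0.05, 68.8% as deposited, was 49.8% with median centring, 55.8% with quantile normalization, 51.1% with voom without immunoglobulin fragments and 58.5% with no filter. Differences that changed sign were near 0. Ebp was at -0.0502 without immunoglobulin fragments in the scaling, -0.0419 with median centring, -0.0355 with quantile normalization and -0.0558 with the second voom fit, and between -0.0434 and 0.0644 with a library left out. Ifng was at 0.12 with TPM and between -0.1923 and 0.0064 with a library left out. Ncr1 was at 0.0543 with a pseudocount of 0.1, 0.0812 with TPM and 0.0034 with voom, and between -0.17 and 0.23 with a library left out. The interaction of Oas3 was at -0.0097 without immunoglobulin fragments. The cause was not tested. Of the other settings tried, a filter at 1 FPKM or on SLE123 libraries, a robust variance moderation, and moderation that ignores the trend gave 5 or 6 genes. With the replicate number as a block 4 genes passed, but mice of the same number did not deviate together (correlations of 0.137, -0.161 and 0.266), so the numbers were not taken as pairs.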
